A study of Homo sapiens with 9 samples.

Results

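Loss of HIF2α was set directly against its inhibition in 786-0 cells. The 3 libraries of a HIF2α knockout line (KO) were compared with the 3 libraries of parental (WT) cells treated with PT2385, gene by gene over all genes with enough counts. These are 6 of the 9 RNAseq libraries of the series, and the 3 libraries of untreated WT cells serve only to place the values. 786-0 is a human clear cell renal carcinoma line with defective VHL, an inactivating HIF1α mutation and constitutive HIF2α, and KO and PT2385-treated cells share this background. PT2385 was given at 10 μM for 48 h, KO cells received no drug, and all groups were kept in normoxia (21% O2) for 48 h. The paper describes silencing of HIF2α by siRNA but no knockout, and the titles of the KO libraries differ only in the replicate number. They are treated here as a single line. Changes from its making or later culture and changes from the loss of HIF2α cannot be told apart. Nothing in the labels says that replicates were separate cultures, so p-values measure the spread between these samples, which may be technical.

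HIF2α, the product of EPAS1, is a transcription factor that pairs with HIF1β (the product of ARNT) and binds hypoxia response elements near its target genes. VHL normally marks HIFα subunits for degradation when oxygen is present, and in clear cell renal carcinoma its loss lets HIF2α accumulate in normoxia. PT2385 occupies a pocket in HIF2α and interferes with the pairing with HIF1β, so the protein is still made but acts less through its partner. The paper holds that the drug does not block the binding to DNA entirely. The knockout is meant to remove the protein itself, for as long as the line has been in culture, but these data hold no measure of protein.

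The labels were first checked on EPAS1 (ENSG00000116016, chromosome 2, 46293667 to 46386697). It had 262, 360 and 307 counts in the KO libraries and 3075, 3317 and 3132 counts in the PT2385 libraries. Every KO library lay far below every PT2385 library, at 22.1 ± 2.52 against 239 ± 16.9 CPM (reads of the gene relative to the TMM-scaled library size, mean ± SD, n = 3), while untreated cells had a mean of 256. The log2 fold change of KO over PT2385 was -3.43 (adjusted p = 4.06e-08, edgeR's quasi-likelihood test with Benjamini-Hochberg adjustment). PT2385-treated over untreated cells gave -0.11 (adjusted p = 0.459, edgeR). ARNT had 55.6 ± 5.02 CPM in KO and 51.5 ± 1.62 in PT2385-treated cells (adjusted p = 0.437, edgeR). HIF1A, which encodes HIF1α, had 36.4 ± 6.85 and 28.2 ± 5.12 (log2 fold change 0.37, adjusted p = 0.138, edgeR).

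Between 12893484 and 14730081 reads were counted per KO library and between 12209143 and 14318384 per PT2385 library. On the first principal component, which held 63.3% of the variance, KO lay at 26.2 to 29.4, PT2385 at -8.84 to -7.74 and untreated WT at -20.5 to -19.2. Markers of renal epithelium and clear cell carcinoma summed to between 6434 and 7085 CPM in all 9 libraries, and 1 of the 10 was at 0 in each. The most abundant marker had 52161 to 66723 counts per library, so the sum rests largely on that marker. Of 9 tested members 2 were higher and 2 lower in KO than with PT2385 (44.4% at an adjusted p under 0.05, edgeR, against 18.8% of all tested genes). The 6 endothelial markers summed to 0.413 to 0.619 CPM in KO and at most 0.210 elsewhere, and the 6 haematopoietic markers to at most 0.232. Fibroblast markers summed to 5.23 to 7.01 CPM in KO and 10.5 to 13.3 in PT2385-treated cells, and 3 or 4 of the 6 were at 0 in each library.

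Of 15402 genes tested, 2897 (18.8%) differed between KO and PT2385-treated cells at an adjusted p under 0.05. Of these, 1305 (8.47% of tested genes) were higher in KO and 1592 (10.3%) were lower. A difference of at least 2-fold was reached by 738 genes (4.79%), 430 higher and 308 lower in KO. In 5452 genes (35.4%) all 3 libraries of one group lay above all 3 of the other, and in such a gene the exact permutation test (two-sided) gives p = 0.1, the smallest that 3 against 3 allow. The count of called genes depended on single libraries and fell to 1836 without PT2385 replicate 2, with 845 higher and 991 lower, while 1061 were lower without KO replicate 1. For scale, 4566 of 15192 genes (30.1%) differed between KO and untreated WT and 1162 of 15089 (7.70%) between PT2385-treated and untreated WT. These 3 comparisons share libraries and are not independent.

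The largest differences were between expression and near silence. STUM (ENSG00000203685, chromosome 1, 226548764 to 226609230) had 374, 492 and 331 counts in KO and 0 in every PT2385 and untreated library, at least 127-fold above a floor of 3 counts per library. MARK1 (ENSG00000116141, chromosome 1, 220528136 to 220664461), a kinase that phosphorylates microtubule-associated proteins, had 277, 309 and 311 counts in KO against 0, 2 and 0 with PT2385, a ratio of 429 (95% counting interval 118 to 3546). Both genes lie on the distal part of chromosome 1, whose genes are described below by position. CCN3, a secreted matricellular protein, had 15.6, 14.8 and 14.2 CPM in KO against 0.0808, 0.299 and 0.560 with PT2385 (log2 fold change 5.48, SE 0.292). FAM20C, the kinase that phosphorylates secreted proteins in the Golgi, had 22, 34.5 and 16.2 CPM against 0.646, 0.524 and 0.770 (5.20, SE 0.357). In each of these 4 genes the KO libraries stood clear of all others.

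The other 6 of the 10 largest excesses in KO were those of RAB6B, SHISA9, PAQR5, RYR2, HMGA1 and LY6E. HMGA1, an architectural chromatin protein, had 58.1, 48.9 and 46.7 CPM in KO and 6.14, 6.44 and 6.86 with PT2385 (log2 fold change 2.98, adjusted p = 1.22e-07, edgeR). SHISA9, a partner of AMPA receptors, had 50.1, 48.1 and 51.6 against 4.77, 6.06 and 5.32 (3.21), although it lies on chromosome 16, where most differences ran the other way. RYR2, an intracellular calcium release channel, had 16.7, 12 and 18.4 against 2.42, 1.95 and 1.54 (3.00) and lies on distal chromosome 1. LY6E, a membrane-anchored protein that interferon induces, stood at 29.3 ± 5.46 against 3.80 ± 0.497 CPM. RAB6B (3.23) shares exonic sequence with SRPRB and PAQR5 (3.09) with KIF23-AS1, and the strand setting of the counting is not given in the sources used here. The paper names RAB6B among the genes that PT2385 treatment up-regulated.

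ROR2 (ENSG00000169071, chromosome 9, 91563091 to 91950228), a receptor tyrosine kinase for Wnt5a, showed the largest deficit in KO. It had 0, 2 and 3 counts in KO, 191, 195 and 238 with PT2385 and 463, 420 and 506 in untreated cells, so that the 3 groups did not overlap (log2 fold change of KO over PT2385 -6.92, SE 0.322, adjusted p = 4.15e-07, edgeR). PT2385 lowered ROR2 to a lesser degree (log2 fold change over untreated -1.31, adjusted p = 4.51e-06). The same order of untreated, PT2385 and KO was found in SEMA6A, a transmembrane semaphorin, with 312, 112 and 7.66 CPM (-3.86). It was also found in C1QL1, a secreted C1q-domain protein, with 148, 43.8 and 2.97 CPM (-3.87).

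A second set of genes was lower in KO than in either group of parental cells and, apart from SLITRK2, did not pass the test upon PT2385 treatment. LAYN, a hyaluronan receptor, had 0.155, 0.486 and 0.413 CPM in KO, 24.4, 26.6 and 24.2 with PT2385 and 24.8, 26.5 and 25.4 untreated (KO over PT2385 -6.10, PT2385 over untreated -0.03, adjusted p = 0.885, edgeR). NUP210, a membrane protein of the nuclear pore, had 0.387, 0.278 and 0.551 in KO and 15, 18 and 16.4 with PT2385 (-5.31). AMOTL1, an angiomotin that binds the YAP coactivator, had 6.03, 4.86 and 5.02 in KO and 49.8, 50.6 and 53 with PT2385 (-3.27). AIF1L (-4.54), which binds actin, and NEBL (-3.05), which encodes the actin-binding nebulette, belong to the same set. SLITRK2, a neuronal adhesion protein, went from 20.2 to 0.411 CPM (-5.61) and was lower upon PT2385 by a smaller amount (-0.46, adjusted p = 0.0192).

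**Figure D1:**
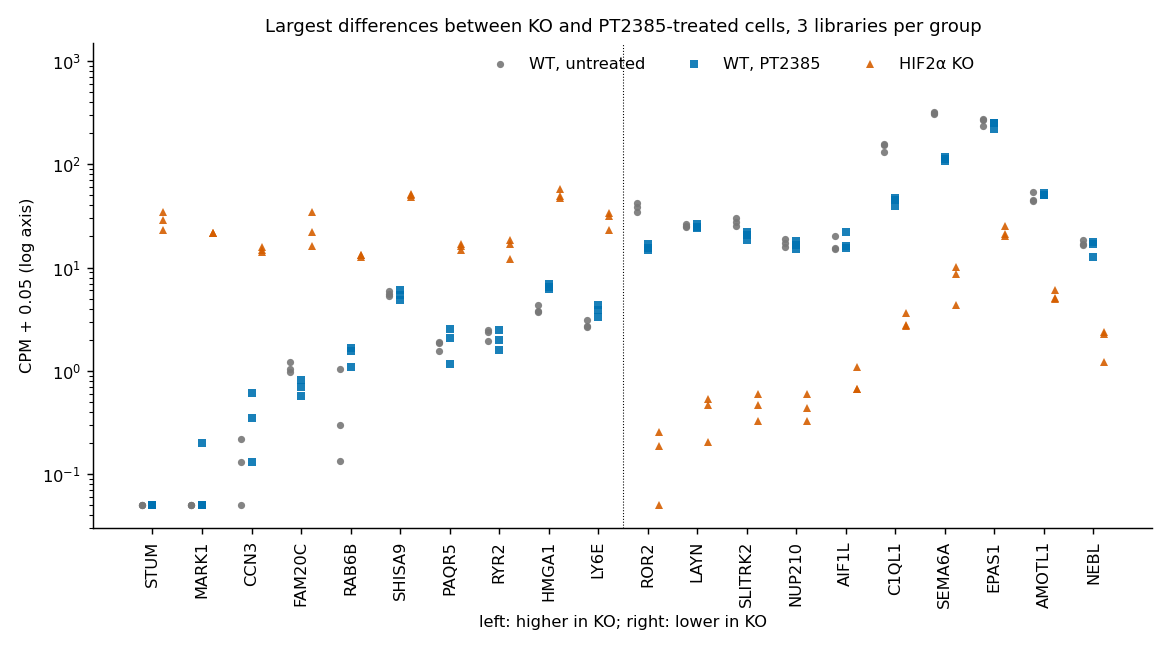
CPM plus 0.05 on a log axis in each of the 3 libraries of untreated WT, PT2385-treated WT and KO for the 10 genes with the largest excess (left) and the 10 with the largest deficit (right) in KO against PT2385. KO triangles stand apart from both other groups in all 20 genes. ROR2, SEMA6A and C1QL1 are among the genes whose untreated and PT2385 points are separate as well.

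As many HIF target genes were down-regulated in KO as upon PT2385 treatment. Of 35 tested members (ANGPTL4, ANKRD37, CA9, CXCR4 and EPO had too few counts), 22 were down-regulated in KO against untreated WT (15.4% of all tested genes were) and 22 upon PT2385 treatment (4.62% of all tested genes were). Against untreated WT, 3 were up-regulated in KO and 0 upon PT2385 treatment (14.7% and 3.08% of all tested genes were). Equal counts do not show that the members were the same. In the direct comparison 5 were higher and 6 lower in KO (31.4% called against 18.8% of all tested genes), with a median log2 fold change of 0.02, and 4 were higher and 5 lower of 33 outside the regions described below by position (27.3% called). The 24 members that were not called had log2 fold changes between -0.43 and 0.48, which does not show that they were equal. The letters ACGTG, the core of the hypoxia response element, were found on either strand in 13 of the 27 members with a RefSeq promoter entry (48.1%), against 27.0% of 10425 promoters of tested genes. Of members with an entry they were found in 2 of the 4 higher in KO, 2 of the 6 lower and 9 of the 17 not called. The number called fell to 7 without KO replicate 1 or without PT2385 replicate 2.

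VEGFA, the angiogenic growth factor, had 83.7, 63.1 and 76.3 CPM in KO and 76.4, 68.9 and 80.5 with PT2385, against 336, 327 and 317 in untreated cells. KO and PT2385 libraries overlapped, both far below untreated cells (KO over PT2385 -0.02, SE 0.106, adjusted p = 0.926, edgeR). NDRG1, a stress-responsive gene induced by hypoxia, had 49.3, 52.1 and 41.6 in KO and 59.9, 55.2 and 51.7 with PT2385 (-0.22, SE 0.0988, adjusted p = 0.155, edgeR), against 645 ± 83.1 untreated. ITGB8, an integrin chain outside the list, likewise had 90.7 ± 9.70 and 89 ± 8.91 against 375 ± 45.4 CPM (0.03, adjusted p = 0.893, edgeR). ADM, which encodes the vasodilator peptide adrenomedullin and was chosen after its values were seen, had 6.73, 7.08 and 8.26 in KO, 8.57, 9.21 and 9.66 with PT2385 and 58.4, 62.4 and 71.8 untreated, with a difference of -0.31 between KO and PT2385 (adjusted p = 0.164, edgeR).

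A few HIF targets parted KO and PT2385-treated cells. EGLN3, the prolyl hydroxylase that HIF itself induces, had 2.47, 1.87 and 2.89 CPM in KO and 13.9, 13.6 and 16.8 with PT2385, against 133, 119.9 and 139 untreated. The 3 groups were separate, and KO was 6.12-fold below PT2385 (log2 fold change -2.61, adjusted p = 5.74e-06, edgeR). CA12, a membrane-bound carbonic anhydrase, showed the same order with 30.3 ± 4.91, 116 ± 6.22 and 317 ± 8.85 (-1.93), and it lies on chromosome 15, where genes were lower in KO as a whole. PFKFB3, which makes an activator of glycolysis, had 151 ± 11.3 CPM in KO against 235 ± 15.9 (log2 fold change -0.64, adjusted p = 3.06e-04, edgeR).

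In the other direction, SLC2A1, which encodes the glucose transporter GLUT1, had 276, 245 and 258 CPM in KO and 169, 184 and 201 with PT2385. All KO values were above all PT2385 values, although both remained far below the 911 ± 41.3 of untreated cells (log2 fold change 0.49, adjusted p = 0.00161, edgeR). BNIP3L, a mitophagy receptor, stood at 39.7 ± 3.01 in KO, 44.7 ± 3.22 in untreated cells and 22.9 ± 1.74 with PT2385 (0.79), and shares exonic sequence with PNMA2. INSIG2, a brake on sterol synthesis named after its values were seen, had 29.6 ± 1.68 against 17.4 ± 2.59 (0.77). EGLN1, the main oxygen sensor among the prolyl hydroxylases, had 167 ± 4.45 against 76.4 ± 1.11 (1.13) and lies in a stretch of distal chromosome 1 where every gene with a mean of at least 100 counts was higher in KO.

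**Figure D2:**
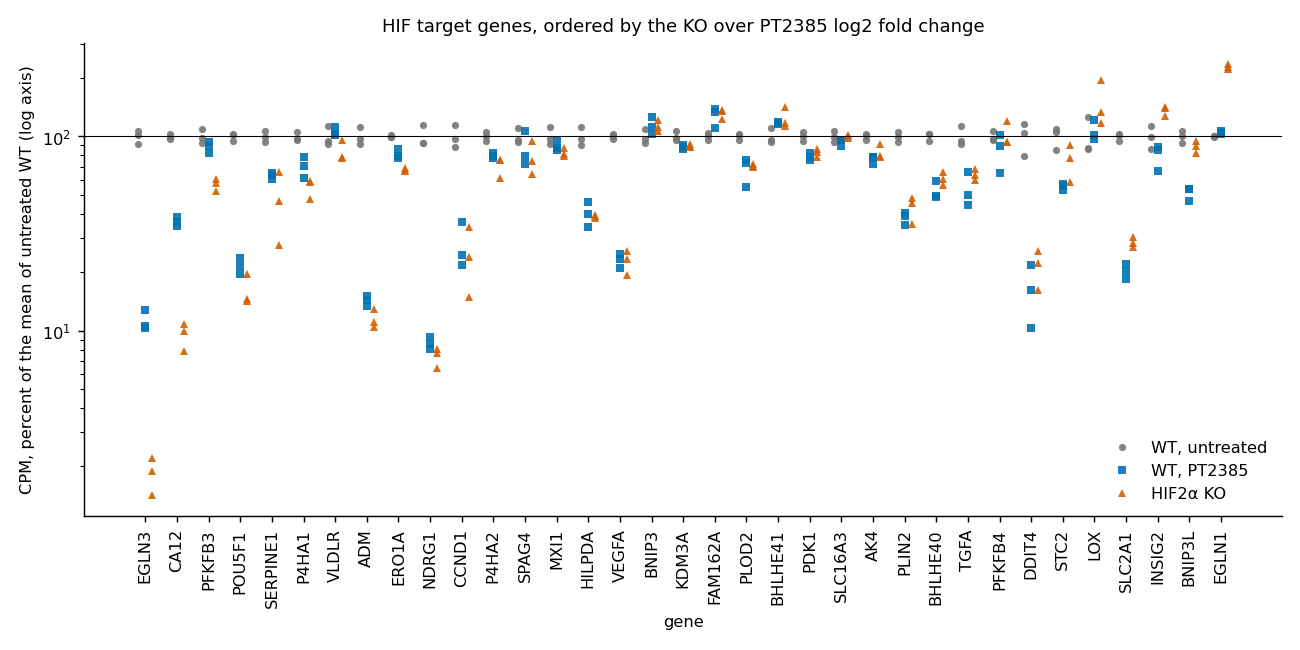
CPM of the 35 tested HIF target genes in each library, as percent of the mean of untreated WT on a log axis, ordered from the lowest to the highest log2 fold change of KO over PT2385. EGLN3 and CA12 lie lower in KO than with PT2385, EGLN1, BNIP3L, INSIG2 and SLC2A1 lie higher, and in VEGFA and NDRG1 the KO and PT2385 points overlap far below the line at 100%.

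Position in the genome separated the groups as well, a pattern found after the values were seen and given here without a test. Among genes with a mean of at least 100 counts, the 308 on chromosome 15 had a median log2 fold change of KO over PT2385 of -0.58, 80.5% of them were called lower and 1.62% higher. The 474 on chromosome 16 had a median of -0.37, with 60.5% lower and 1.48% higher. On the 20 other chromosomes, chromosome 1 set aside, medians ran from -0.10 to 0.05 and the share called lower from 2.86% to 14.4%. Against untreated WT the medians of chromosomes 15 and 16 were -0.56 and -0.34 in KO and -0.01 and 0.03 with PT2385. The difference was thus one of the KO line against both kinds of parental cells, and it was found in each of the 3 KO libraries (chromosome 15 at -0.37, -0.39 and -0.36 from the mean of the 9 libraries).

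The distal part of chromosome 1 changed sign from stretch to stretch. From FAM20B to TGFB2 (179025804 to 218444619) the median of 113 genes was -0.36, and 57.5% were lower in KO. From BPNT1 to PSEN2 (220057482 to 226927726) the median of 37 genes was 0.81, and 91.9% were higher. From CDC42BPA to IBA57 (226989865 to 228182257) it was -0.39 over 9 genes, and from COG2 to MAP3K21 (230642481 to 233385148) it was 1.04 over 14 genes, all of them higher in KO. From TARBP1 to ZNF496 (234391313 to 247331867) it was -0.35 over 39 genes, whereas the 821 genes before FAM20B had a median of 0.01. In windows of 5 Mb with at least 10 genes, 34 of 385 had a median of at least 0.3 in size. All 34 lay among the 39 windows of chromosomes 15, 16 and distal 1. Windows elsewhere ran from -0.25 to 0.25, so smaller shifts by position remain outside these regions. Of 590 genes on chromosome 17, 66.9% had a negative log2 fold change, 14.4% were called lower and 5.08% higher. Its window from 45000001 to 50000000 had a median of -0.25.

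These regions held 1573 tested genes (10.2%), but 725 of the 1592 genes lower in KO (45.5%) and 88 of the 1305 higher (6.74%). Among differences of at least 2-fold they held 73 of 308 lower and 44 of 430 higher genes. Of the 13829 tested genes elsewhere, 15.1% were called, 8.80% higher and 6.27% lower, so that more genes were higher than lower in KO outside these regions and the reverse was true over all genes. These files hold RNA counts only, and in a single line the differences that follow position and those that follow the loss of HIF2α cannot be told apart. Counts of gene lists are therefore also given outside these regions wherever the number of called members differs there.

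**Figure D3:**
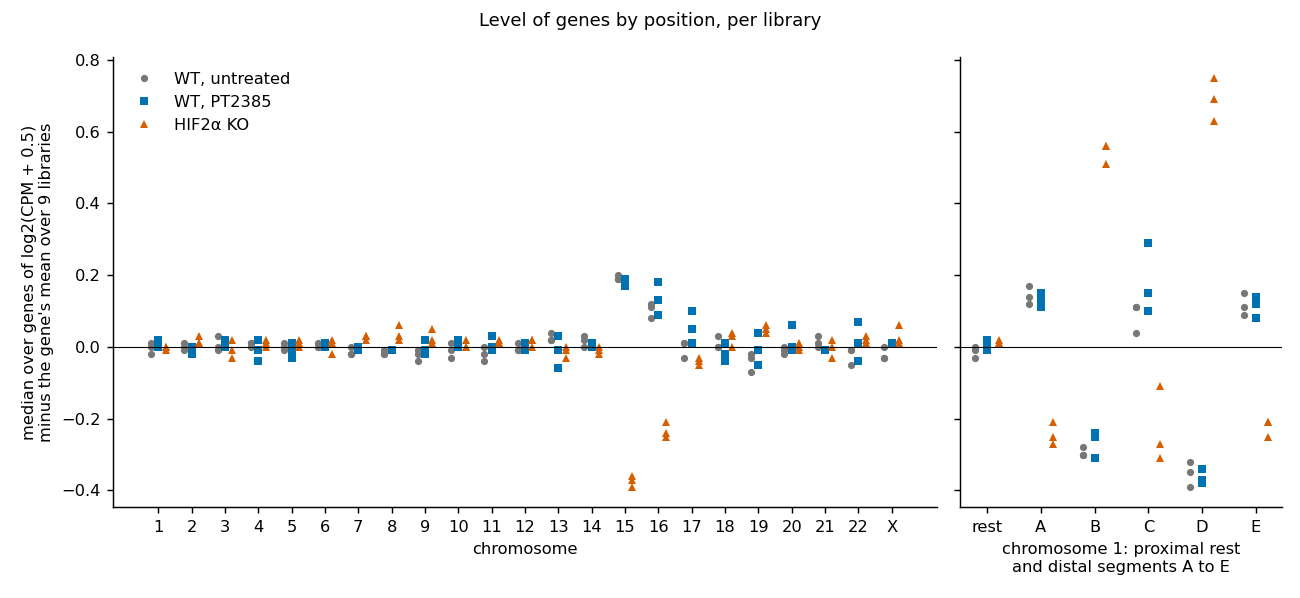
Median over genes (mean of at least 100 counts) of log2(CPM + 0.5) minus the gene's mean over the 9 libraries, for each library by chromosome (left) and for chromosome 1 before FAM20B (rest) and the 5 distal stretches from FAM20B to ZNF496 in order (A to E, right). KO libraries fall to between -0.39 and -0.36 on chromosome 15 and rise to between 0.63 and 0.75 in stretch D, and in chromosomes 15 and 16 and stretches A to E untreated and PT2385 libraries lie together on the other side of 0.

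CDKN1A, GDF15 and SPATA18 were higher in KO than in both kinds of parental cells. CDKN1A (ENSG00000124762, chromosome 6, 36676460 to 36687337), which encodes the cyclin-dependent kinase inhibitor p21, had 204, 232 and 180.0 CPM in KO, 66.9, 63.8 and 73.1 with PT2385 and 45.8, 47.2 and 42.6 in untreated cells. The 3 groups did not overlap. CDKN1A was higher upon PT2385 treatment as well (0.58 over untreated, adjusted p = 4.41e-04, edgeR), and higher still in KO (KO over PT2385 log2 fold change 1.59, adjusted p = 2.50e-06, edgeR). GDF15 (ENSG00000130513, chromosome 19, 18374731 to 18389176), a secreted stress cytokine, had 43.4, 36.6 and 24.8 CPM in KO, 4.93, 4.86 and 5.32 with PT2385 and 2.85, 2.80 and 2.60 untreated (2.79, SE 0.203). SPATA18, which takes part in mitochondrial quality control, had 14.3, 13.4 and 9.77 CPM in KO and 2.91, 2.47 and 3.43 with PT2385, where untreated cells had 2.52, 3.46 and 3.60 (2.08). SPATA18 was high in the KO libraries, and untreated and PT2385 libraries lay together.

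MDM2, a ubiquitin ligase gene, had 255 ± 19.6 CPM in KO against 164 ± 0.734 (log2 fold change 0.63, adjusted p = 1.74e-04, edgeR). The apoptotic effector BAX had 75.2 ± 0.978 against 52.7 ± 3.09 (0.51), and RRM2B, a ribonucleotide reductase subunit for DNA repair, 128 ± 8.45 against 55.6 ± 3.23 (1.21). The RNA-binding protein gene ZMAT3 (1.22), the receptor gene EDA2R (1.17) and the DNA damage recognition gene DDB2 (0.92) were higher to a like degree. TP53INP1 (1.58) shares exonic sequence with NDUFAF6. MDM2, RRM2B, ZMAT3, EDA2R, DDB2, FAS and TP53I3 were named after their values were seen. Of the genes not called, FAS, a death receptor, had 38.6, 28.8 and 43.6 against 32.7, 30.5 and 36.8 CPM and TP53I3, an oxidoreductase, 0.773, 2.22 and 1.58 against 2.18, 2.02 and 1.89, with overlapping groups in both.

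Of 44 tested interferon response genes 25 were higher and 2 lower in KO (61.4% called against 18.8% of all tested genes), with a median log2 fold change of 0.50, and 0 of the 44 lie in the regions set apart by position. Between 22 and 27 were called with each library left out. Against untreated WT, 28 of 43 tested were up-regulated in KO and 5 of 39 upon PT2385 treatment. Only 17 of the 27 called members had a mean of 100 counts or more, and the largest fold changes were those of genes with few counts.

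Interferons act through transcription factors that bind the interferon-stimulated response element (ISRE). The element was searched as a pair of GAAA runs separated by 2 bases of any kind, on both strands, in RefSeq promoters (GRCh38.p14, from 250 bases before to 50 after the start), where overlapping matches run together in the capitals. It was found in 993 of 27195 promoters (3.65%), in 289 of 10425 promoters of tested genes (2.77%) and in 21 of the 34 interferon members with an entry (61.8%). Members higher in KO held it in 11 of 20 and members not called in 9 of 13 (69.2%). The 150 bases before the start, read 5′ to 3′ on the strand of the gene with the ISRE in capitals, are shown for 4 members that were higher in KO (IFI44, chr1:78649639-78649788, plus strand; IFITM3, chr11:320861-321010, minus strand; ISG15, chr1:1013347-1013496, plus strand; BST2, chr19:17405631-17405780, minus strand) and for 2 that were not called (GBP1, chr1:89065209-89065358, minus strand, and OAS3, chr12:112938324-112938473, plus strand).
IFI44: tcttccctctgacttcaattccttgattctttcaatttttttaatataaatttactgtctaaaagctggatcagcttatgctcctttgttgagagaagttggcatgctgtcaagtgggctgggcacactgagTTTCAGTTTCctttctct
IFITM3: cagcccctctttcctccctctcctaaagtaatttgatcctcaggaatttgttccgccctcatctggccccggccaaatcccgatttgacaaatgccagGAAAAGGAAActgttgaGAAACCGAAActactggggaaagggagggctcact
ISG15: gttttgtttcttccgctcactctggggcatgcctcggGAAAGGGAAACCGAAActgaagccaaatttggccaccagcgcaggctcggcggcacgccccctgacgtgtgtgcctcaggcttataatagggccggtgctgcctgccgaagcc
BST2: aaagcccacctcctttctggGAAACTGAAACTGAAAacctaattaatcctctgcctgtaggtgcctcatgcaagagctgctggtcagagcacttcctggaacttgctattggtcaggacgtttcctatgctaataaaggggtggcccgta
GBP1: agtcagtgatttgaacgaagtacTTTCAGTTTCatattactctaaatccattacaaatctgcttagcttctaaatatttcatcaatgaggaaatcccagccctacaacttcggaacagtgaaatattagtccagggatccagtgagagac
OAS3: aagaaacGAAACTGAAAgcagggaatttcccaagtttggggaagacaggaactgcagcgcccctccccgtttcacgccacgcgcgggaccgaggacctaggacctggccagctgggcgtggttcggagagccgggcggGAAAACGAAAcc

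Among the members with the clearest counts, TRIM22, an antiviral ubiquitin ligase, had 37.1, 36.4 and 26.4 CPM in KO and 11.5, 10.6 and 11.5 with PT2385 (log2 fold change 1.57, adjusted p = 3.36e-05, edgeR). All KO libraries were above all PT2385 libraries, and untreated cells had 9.40, 9.40 and 9.63. IFITM3, a membrane protein that blocks viral entry, had 33.6, 43.7 and 27.4 against 17.3, 16.4 and 16.9 (log2 fold change 1.05, adjusted p = 8.12e-04, edgeR). IFI44, with an ISRE that begins 18 bases before the start, had 11.8, 13.3 and 9.15 against 4.77, 5.09 and 5.67 (1.13), and the ubiquitin-like protein gene ISG15 24.5 ± 1.57 against 16.3 ± 1.90 (0.58). BST2, which tethers virions to the cell surface, had 158 ± 5.04 against 114 ± 3.47 (0.47). GBP1, an interferon-induced GTPase, had 30.2, 22.4 and 36.1 in KO and 32.9, 36.4 and 33 with PT2385, and OAS3, a sensor of double-stranded RNA, 136, 105 and 112 in KO and 116, 121 and 139 with PT2385, with overlapping groups in both.

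Some sensors and transducers were among the higher members. RIGI, the cytosolic RNA sensor, had 22.3 ± 2.36 CPM in KO and 13.7 ± 0.979 with PT2385 (0.71), and STAT2 68.8 ± 14.4 and 40.8 ± 2.79 (0.75). OAS2 and OAS1, further sensors of double-stranded RNA, had high log2 fold changes on few counts. OAS2 had 56, 48 and 20 counts in KO and 1, 3 and 2 with PT2385 (4.24), and OAS1 85, 89 and 53 in KO and 12, 3 and 13 with PT2385 (2.94). ISG15, BST2, GBP1, OAS3, RIGI, STAT2, OAS1 and OAS2 were named after their values were seen. In antigen presentation 3 of 21 tested members were called (14.3%, below the 18.8% of all tested genes, a difference that was not tested, and 2 of 18 outside chromosomes 15, 16 and distal 1). The 3 calls (1 without PT2385 replicate 2 and 5 without PT2385 replicate 3) were higher in KO, among them HLA-E (119.9 ± 7.56 against 87.9 ± 8.95, 0.44).

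**Figure D4:**
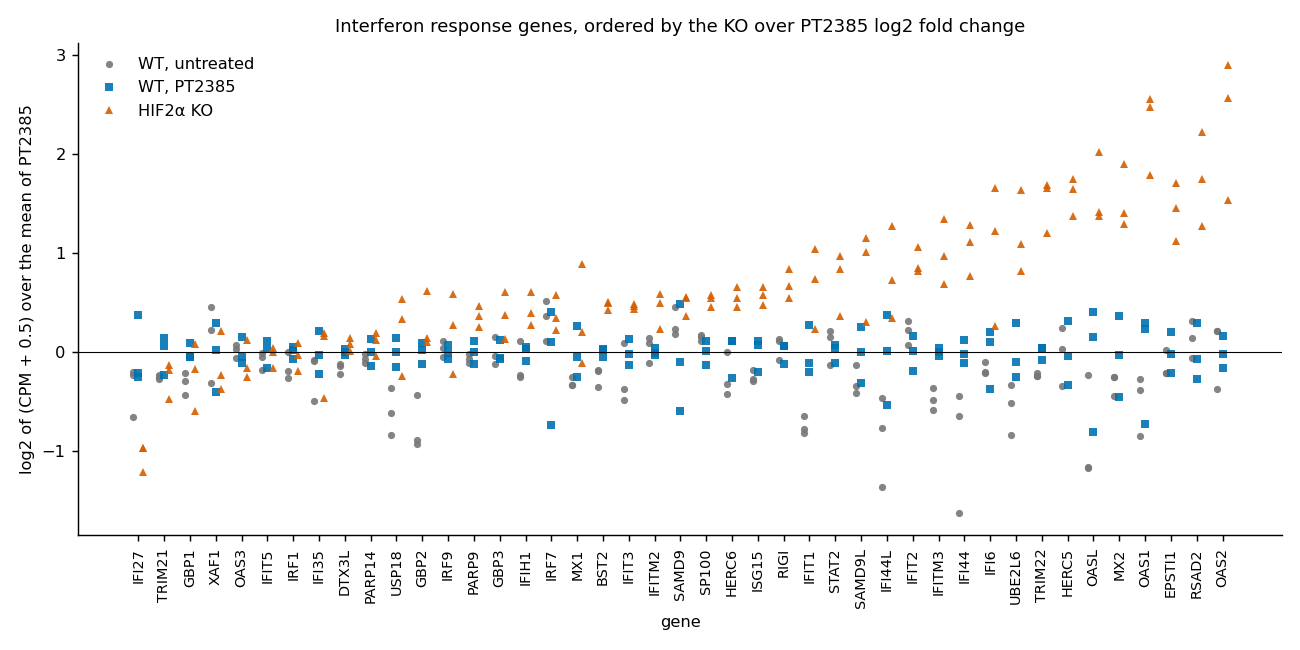
Log2 of (CPM + 0.5) over the mean of the PT2385 libraries for 43 of the 44 tested interferon response genes in each library, ordered by the log2 fold change of KO over PT2385. KO points lie above the untreated and PT2385 points in most genes from BST2 to OAS2, and IFI27 lies below.

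Extracellular matrix genes differed in both directions. Of 34 tested matrix glycoproteins and basement membrane genes 14 were higher and 7 lower in KO (61.8% called against 18.8% of all tested genes). Outside chromosomes 15, 16 and distal 1, 13 were higher and 5 lower of 28 (64.3% against 15.1%). FN1, fibronectin, had 27666, 25933 and 22139 CPM in KO, 9155, 9506 and 6838 with PT2385 and 4586, 4688 and 3376 untreated. The groups did not overlap, and KO exceeded PT2385-treated cells by 2.97-fold (log2 fold change 1.57, adjusted p = 9.91e-06, edgeR). Basement membrane genes were among the higher ones, with the nidogen NID2 at 61.5 ± 4.18 against 8.97 ± 2.10 (2.78), the laminin chain LAMA5 at 38 ± 3.80 against 8.56 ± 1.55 (2.15) and the peroxidase PXDN, which cross-links collagen IV, at 64.1 ± 2.41 against 9.83 ± 0.646 (2.70). NID2 shares exonic sequence with RTRAF and LAMA5 with ADRM1. TGFBI, an adhesive matrix protein named after its values were seen, was lower, at 623 ± 39.5 against 1354 ± 74.7 (-1.12).

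Of 17 tested collagen chains 4 were higher and 5 lower in KO (52.9% called against 18.8% of all tested genes). COL12A1, a fibril-associated chain, had 22.7, 24.7 and 25.5 CPM in KO and 2.34, 3.52 and 3.92 with PT2385 (log2 fold change 2.88, adjusted p = 1.70e-06, edgeR), where untreated cells had 2.27, 3.22 and 2.93. COL14A1, of the same class, had 93.8 ± 10.5, 27.4 ± 2.97 and 6.64 ± 0.628 in KO, PT2385-treated and untreated cells. It was thus above untreated cells in both groups and highest in KO (1.77). The chains of collagen VI split, with COL6A3 at 31.3, 25.8 and 19.4 in KO and 192, 174 and 175 with PT2385 (-2.83), but COL6A1 (1.64) and COL6A2 (0.86) higher in KO. COL6A3 was far below both kinds of parental cells. COL4A1, of basement membranes, had 408 ± 15.4 in KO, 413 ± 5.91 untreated and 583 ± 22.2 with PT2385 (-0.52), as PT2385 raised it (0.49 over untreated, adjusted p = 9.25e-05, edgeR) and KO was not called against untreated cells. COL6A2 and COL4A1 were named after their values were seen.

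Of 19 tested enzymes and chaperones that mature collagen 0 were higher and 9 lower in KO (47.4% called against 18.8% of all tested genes, median -0.23). Outside chromosomes 15, 16 and distal 1, 0 were higher and 8 lower of 18. The other 10 were not called and had log2 fold changes between -0.72 and 0.48. The collagen chaperone SERPINH1 had 50.5, 52.2 and 51.2 CPM in KO and 81.6, 90.1 and 88.2 with PT2385, and untreated cells had 58.2, 63.6 and 62.2 (log2 fold change -0.76, adjusted p = 4.70e-05, edgeR). The PT2385 libraries stood above both other groups. LOXL2, a lysyl oxidase that cross-links collagen, had 242 ± 10.5, 357 ± 15.7 and 593 ± 26.2 in KO, PT2385-treated and untreated cells (-0.56). LOXL2 was thus below untreated cells in both groups and lowest in KO. It shares exonic sequence with ENTPD4. P3H4, part of a collagen hydroxylation complex, had 26 ± 3 against 39.4 ± 1.84 (-0.60). LOXL1 (-1.25) lies on chromosome 15 and shares sequence with LOXL1-AS1.

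Of 33 tested matrix proteases and inhibitors 9 were higher and 9 lower in KO (54.5% called against 18.8% of all tested genes). Outside chromosomes 15, 16 and distal 1, 7 were higher and 8 lower of 29. ADAMTS5, an aggrecanase, had 92.8, 93.3 and 91.5 CPM in KO, 14.6, 15 and 12.9 with PT2385 and 10.5, 14.3 and 12.3 untreated (log2 fold change 2.71, adjusted p = 5.20e-08, edgeR). It stood high in KO and was not called upon PT2385 treatment. ADAMTS15 was above untreated cells in both groups, with 22.4 ± 8, 6.47 ± 0.637 and 2.45 ± 0.607 in KO, PT2385-treated and untreated cells (1.80). The membrane-type metalloproteinase MMP16 had 18.4 ± 2.73 against 5.25 ± 0.859 (1.81) and the procollagen peptidase ADAMTS2 14.2 ± 3.50 against 4.96 ± 0.749 (1.52). The collagenase MMP13 was lower, with 12, 27 and 7 counts in KO and 171, 122 and 123 with PT2385 (-3.25), and so was the sheddase ADAM19 (76.5 ± 4.19 against 145 ± 4.89, -0.92). ADAM19 shares exonic sequence with CYFIP2, and MMP13 and ADAM19 were named after their values were seen.

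Cell surface molecules for adhesion and guidance parted the groups in both directions. Of 17 tested adhesion molecules of the immunoglobulin type 6 were higher and 3 lower in KO (52.9% called against 18.8% of all tested genes). NRCAM, a neuronal adhesion molecule, had 44.2, 39.3 and 51.9 CPM in KO, 10.3, 10.3 and 8.75 with PT2385 and 1.51, 4.04 and 3.18 untreated (log2 fold change 2.21, adjusted p = 1.71e-06, edgeR). VCAM1, a leukocyte ligand, had 111, 101 and 158 CPM in KO, 79.1, 63.2 and 89.1 with PT2385 and 18.7, 18 and 17.5 untreated (log2 fold change 0.67, adjusted p = 0.0154), and the call was lost without PT2385 replicate 2 (adjusted p = 0.0718). In both genes the level was higher with PT2385 than in untreated cells, and KO stood higher still. MCAM, which shares sequence with CBL, was lower (32.6 ± 2.11 against 72.4 ± 11, -1.15).

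Of 24 tested semaphorins, plexins and neuropilins 5 were higher and 6 lower (45.8% called against 18.8% of all tested genes). All 11 calls held with each library left out. Outside chromosomes 15, 16 and distal 1 they were 4 higher and 3 lower of 20 (35.0% called). SEMA6A was the lowest of the 6, and 3 others, SEMA7A (-1.12), SEMA6D (-0.93) and SEMA4B (-0.77), lie on chromosome 15. The secreted repellent SEMA3A had 21.9, 21.1 and 23.5 CPM in KO and 6.46, 7.63 and 7.49 with PT2385 (log2 fold change 1.62, adjusted p = 8.21e-06, edgeR), and its receptor NRP1 242 ± 41 against 129 ± 1.90 (0.91). Ligand and receptor were thus both higher in KO, and NRP1 and SEMA4B were named after their values were seen. SEMA5B had too few counts in these 6 libraries to be tested (1, 9 and 1 in KO and 16, 13 and 9 with PT2385).

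The BMP-induced genes ID1 and ID3 were lower in KO. Of 40 tested TGF-beta and BMP genes 3 were higher and 12 lower (37.5% called against 18.8% of all tested genes). Outside chromosomes 15, 16 and distal 1, 3 were higher and 10 lower of 37. ID1, an inhibitor of differentiation, had 59.2, 68.1 and 61 CPM in KO and 144, 126 and 139.5 with PT2385. ID3, of the same family, had 40.5, 49.8 and 46.4 CPM in KO and 133, 132 and 128 with PT2385. No library of one group reached the other (log2 fold changes -1.13 and -1.52, adjusted p = 7.45e-06 and 1.51e-06, edgeR). Untreated cells had 71.6 ± 3.18 and 93.4 ± 0.651, so PT2385 raised both (0.93 and 0.48), and KO lay below untreated for ID3 (-1.02, adjusted p = 3.62e-06) and was not called for ID1 (-0.18, adjusted p = 0.0977). The receptor-like inhibitor BAMBI (-0.89), the transducer SMAD9 (-1.03) and the ligands BMP2 (-0.60) and BMP8B (-1.80) were lower too. SMAD6 (-1.11) lies on chromosome 15 and TGFB2 (-0.69) on distal chromosome 1. TGFBR3, a co-receptor for TGF-beta, was higher, at 8.05 ± 0.183 against 1.34 ± 0.250 (2.57). BAMBI, SMAD9, BMP2, BMP8B and TGFBR3 were named after their values were seen.

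Of 17 tested Notch pathway genes 4 were higher and 6 lower in KO (58.8% called against 18.8% of all tested genes). The ligand JAG1 had 110.4, 119 and 143 CPM in KO, 352, 272 and 313 with PT2385 and 67.3, 54 and 58.4 untreated (log2 fold change -1.34, adjusted p = 2.17e-05, edgeR). It was above untreated cells in both groups and highest with PT2385, whereas FN1 and VCAM1 were highest in KO. The fringe glycosyltransferases, which tune the binding of ligands to Notch, split, with LFNG lower (123 ± 6.44 against 221 ± 7.26, -0.85) and MFNG higher (26.3 ± 1.71 against 9.44 ± 0.225, 1.48) in KO. HES4, a transcriptional target, had a log2 fold change of -0.74 (adjusted p = 0.0168, edgeR), and its adjusted p was 0.0757 without KO replicate 1, 0.0572 without KO replicate 2 and 0.0536 without PT2385 replicate 1.

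Of 22 tested Wnt genes 2 were higher and 7 lower in KO (40.9% called against 18.8% of all tested genes). The number called was 5 without KO replicate 2, without PT2385 replicate 2 or without PT2385 replicate 3. WNT7B, a Wnt ligand, had 186, 189.8 and 216 CPM in KO, 37, 42.1 and 55.3 with PT2385 and 14.4, 19.3 and 21.8 untreated. KO exceeded PT2385-treated cells by 4.39-fold (log2 fold change 2.13, adjusted p = 2.39e-06, edgeR). The receptor FZD7 had 34 ± 4.10 against 47.7 ± 3.89 (-0.49), and FZD8, named after its values were seen, 1.26, 3.14 and 22.4 CPM in KO, PT2385-treated and untreated cells (-1.31).

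The EGF receptor ligands EREG and AREG were lower in KO than with PT2385. Of 28 tested FGF and EGF genes 3 were higher and 7 lower (35.7% called against 18.8% of all tested genes). Outside chromosomes 15, 16 and distal 1, 3 were higher and 6 lower of 27. EREG, epiregulin, had 269, 266 and 306 CPM in KO, 581, 574 and 718 with PT2385 and 303, 398 and 375 untreated (log2 fold change -1.16, adjusted p = 1.87e-05, edgeR), with the highest values in PT2385-treated cells. AREG, amphiregulin, named after its values were seen, followed the same order (3.08 ± 0.268, 10.3 ± 1.29 and 4.80 ± 0.600, -1.74). The receptor FGFR4 had 23.8 ± 6.25 against 57.5 ± 6.50 (-1.28). HBEGF (log2 fold change -1.07, adjusted p = 0.0242, edgeR), a further EGF receptor ligand, lost its call without KO replicate 1 (adjusted p = 0.0958), without PT2385 replicate 2 (0.0907) and with DESeq2 (0.0843).

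Of 14 tested genes of tissue factor and the plasminogen activators 1 was higher and 7 lower in KO (57.1% called against 18.8% of all tested genes). The number called was 5 without PT2385 replicate 2. F2RL1, a receptor that proteases activate, had 3.56, 4.30 and 5.64 CPM in KO, 24.6, 26.3 and 34.3 with PT2385 and 22.2, 27.8 and 23.7 untreated (log2 fold change -2.65, adjusted p = 5.36e-06, edgeR). It was low in KO only, like the thrombin receptor F2R (10.7 ± 1.05 against 17.3 ± 1.93, -0.70) and the protein C receptor PROCR (14.5 ± 0.444 against 23.1 ± 2.06, -0.67). F3, tissue factor itself, was below untreated cells in both groups, with 9.81 ± 2.51 in KO, 16.6 ± 0.873 with PT2385 and 138 ± 9.87 untreated. Its direct difference of -0.76 (adjusted p = 0.0102, edgeR) was not called without PT2385 replicate 2 (adjusted p = 0.0515). Among 11 sphingosine-1-phosphate genes (36.4% called, 3 of 10 outside chromosomes 15, 16 and distal 1), the receptor S1PR3 had 67.4, 68.5 and 78.2 CPM in KO and 12, 11.7 and 11.7 with PT2385 (2.59) and S1PR1 42.1 ± 12.2 against 17.9 ± 1.91 (1.23). The exporter SPNS2, which shares sequence with MYBBP1A and was named after its values were seen, was lower (2.55 ± 0.236 against 11.3 ± 3.80, -2.15).

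**Figure D5:**
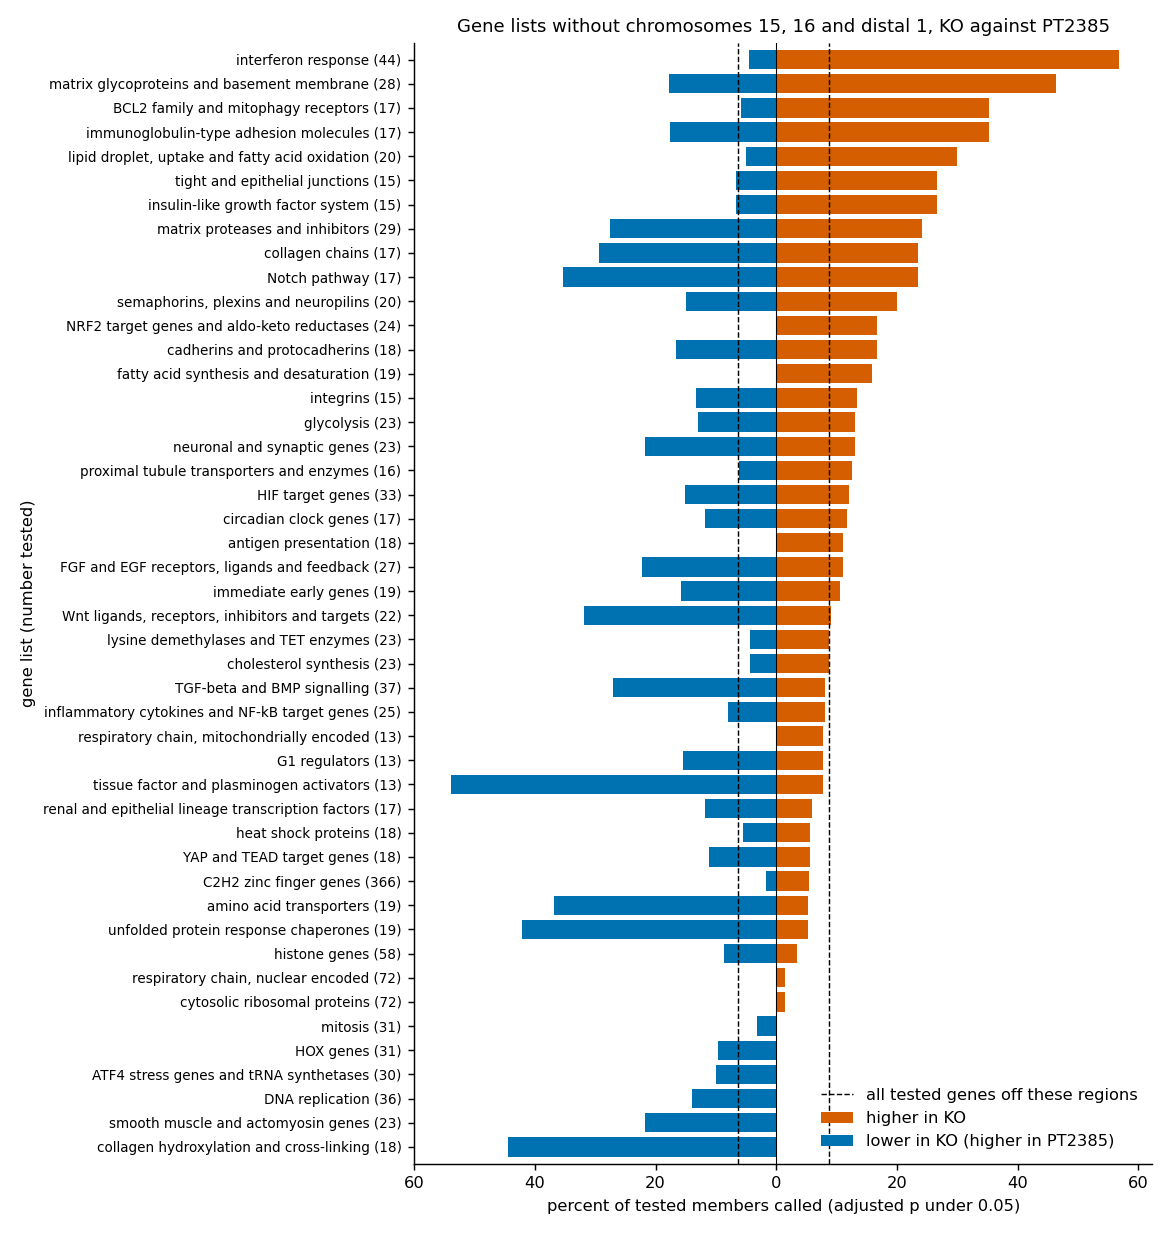
Percent of tested members called higher (right, orange) or lower (left, blue) in KO against PT2385 for lists with at least 13 tested members outside chromosomes 15, 16 and distal 1, with the number tested in parentheses and dashed lines at 8.80% and 6.27%, the shares over all tested genes there. The longest bars to the right are those of interferon response (25 of 44) and matrix glycoproteins (13 of 28), and to the left those of tissue factor and plasminogen activators (7 of 13), collagen hydroxylation (8 of 18) and unfolded protein response chaperones (8 of 19).

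In metabolism, glycolysis genes differed in both directions. Of 25 tested 3 were higher and 4 lower in KO (28.0% called against 18.8% of all tested genes), 3 and 3 of 23 outside chromosomes 15, 16 and distal 1. The number called was 3 without PT2385 replicate 2 and 4 without KO replicate 1 or 2. ENO2, an enolase, had 13.1, 14.6 and 11.5 CPM in KO, 32.1, 34.8 and 32.5 with PT2385 and 67.7, 69.8 and 76 untreated, in 3 separate groups (log2 fold change -1.34, adjusted p = 1.79e-05, edgeR). SLC2A3 (27.1 ± 8.52 against 15.7 ± 2.35, log2 fold change 0.78, adjusted p = 0.0258, edgeR), a second glucose transporter, had overlapping groups and lost its call without KO replicate 1 (adjusted p = 0.117), KO replicate 2 (0.0746), PT2385 replicate 2 (0.102) or PT2385 replicate 3 (0.0721).

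Of 21 tested genes of lipid droplets, lipid uptake and fatty acid oxidation 6 were higher and 1 lower in KO. These were 33.3% called, against 18.8% of all tested genes, with 4 called without KO replicate 1. CPT1A, which admits fatty acids to mitochondria, had 39.9, 33.8 and 49.8 CPM in KO, 14.7, 17 and 20.7 with PT2385 and 8.06, 12 and 11.7 untreated (log2 fold change 1.23, adjusted p = 3.65e-04, edgeR). The nuclear receptors PPARG (22.9 ± 4.12 against 13.4 ± 0.815, 0.77) and PPARA (83.3 ± 12.1 against 56.8 ± 2.01, 0.55) were higher as well, and so was PLIN3 (0.36), a lipid droplet coat protein.

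The count for cholesterol synthesis changed most with KO replicate 3. Of 24 tested genes 2 were higher and 1 lower in KO (12.5% called against 18.8% of all tested genes), with a median log2 fold change of 0.45. The 21 members that were not called lay between 0.11 and 0.85, and 22 were called without KO replicate 3 and 1 to 3 with each of the others left out. HMGCS1, an early enzyme of the mevalonate pathway chosen after its values were seen, had 423, 528 and 151 CPM in KO, 278, 276 and 150.1 with PT2385 and 352, 425 and 227 untreated. Replicate 3 was the lowest of its group in all 3 groups, and KO and PT2385 overlapped (log2 fold change 0.64, adjusted p = 0.270, and 0.00562 without KO replicate 3, edgeR). SQLE, squalene epoxidase, showed the same low replicate 3, with 331, 372 and 199 CPM in KO, 247, 247 and 189 with PT2385 and 298, 338 and 239.7 untreated. In both genes the KO value exceeded the PT2385 value at each replicate number, although the labels do not say that the numbers pair the samples.

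Of 22 tested amino acid transporters 1 was higher and 8 lower in KO (40.9% called against 18.8% of all tested genes). Outside chromosomes 15, 16 and distal 1, 1 was higher and 7 lower of 19. The number called over all chromosomes was 5 without PT2385 replicate 2. SLC3A2, the heavy chain of the large neutral amino acid transporter, had 158, 148 and 186 CPM in KO, 215, 237 and 253 with PT2385 and 310.3, 326 and 336 untreated (log2 fold change -0.52, adjusted p = 0.00280, edgeR). Its light chain SLC7A5, on chromosome 16, followed the same order with 667, 1081 and 2311 CPM (-0.70), as did the taurine transporter SLC6A6 with 119, 189 and 365 (-0.66). All were lowered by PT2385 and stood lower still in KO.

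Of 21 tested chaperones of the unfolded protein response 1 was higher and 9 were lower in KO (10.3% of all tested genes were lower), 1 and 8 of 19 outside chromosomes 15, 16 and distal 1. The other 11 were not called and had log2 fold changes between -0.27 and 0.17. The number called fell to 5 without PT2385 replicate 1 or 2 and to 6 without any of the others, and 4 members were called in all 6 of these fits. The disulfide isomerase PDIA4 had 353, 360.0 and 326 CPM in KO and 464, 487 and 466 with PT2385 (log2 fold change -0.45, adjusted p = 7.42e-04, edgeR), and the secreted chaperone cofactor CRELD2 14.9 ± 2.02 against 22.3 ± 1.90 (-0.58). PDIA3 (-0.78), a further isomerase, lies on chromosome 15. The differences were small, and that of HSPA5, the main chaperone of the endoplasmic reticulum, named after its values were seen, was -0.26 (adjusted p = 0.0361, edgeR), with an adjusted p of 0.0669 without KO replicate 2, 0.0649 without KO replicate 3, 0.107 without PT2385 replicate 1 and 0.155 without PT2385 replicate 2.

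In several lists many calls lay on chromosomes 15, 16 and distal 1. Of 40 tested mitosis genes 8 were lower in KO (10.3% of all tested genes were). Outside these regions 1 of 31 was lower, against 6.27% of all tested genes there. Against untreated WT, over all chromosomes, 22 of the 40 were lower in KO and 4 upon PT2385 treatment (15.4% and 4.62% of tested genes). KIF23 (-0.81) and BUB1B (-0.65), which act in cytokinesis and the spindle checkpoint, lie on chromosome 15 and the kinase PLK1 (-0.59) on chromosome 16. Of 40 DNA replication genes 8 were lower and 0 higher, and outside the regions 5 of 36 were lower and 0 higher. Against untreated WT, 20 of the 40 were lower in KO and 1 upon PT2385 treatment. In the direct comparison 1 was called without KO replicate 1 or PT2385 replicate 2. Without KO replicate 2 or PT2385 replicate 3 there were 2, and 22 without KO replicate 3. Of 15 tested metallothionein and zinc genes 6 were lower and 1 higher (46.7% called), but 1 and 1 of 9 outside the regions. MT2A (-0.61), MT1X (-0.97) and MT1E (-0.53), which bind zinc and copper, lie together on chromosome 16. The 7 called members ran from -7.24 to 0.67, and 5 of them had a mean of 100 counts or more. Against untreated WT, 6 members were higher and 1 lower upon PT2385 treatment, and 3 were higher and 6 lower in KO. Of 79 cytosolic ribosomal protein genes 8 were called (10.1%, 14 without PT2385 replicate 3), 1 of 72 outside the regions, and of 76 nuclear genes of the respiratory chain 4 (5.26%), 1 of 72 outside. Of all tested genes 18.8% were called, and 15.1% outside the regions.

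Among the remaining lists, 0 of 25 smooth muscle and actomyosin genes were higher and 7 lower (28.0% called, 0 and 5 of 23 outside chromosomes 15, 16 and distal 1, 11 called without KO replicate 3), and 6 of 18 BCL2 family genes and mitophagy receptors were higher and 1 lower (38.9%, 4 called without PT2385 replicate 1 or 2). HOX genes (3 of 31, 9.68%), histone genes (7 of 58, 12.1%) and C2H2 zinc finger genes (46 of 405, 11.4%) were called in shares below the 18.8% of all tested genes, a difference that was not tested. With a library left out these counts ran from 1 to 4, 3 to 12 and 26 to 52, lowest without PT2385 replicate 2 in each. Of 366 zinc finger genes outside chromosomes 15, 16 and distal 1, 20 were higher and 6 lower (7.10% called against 15.1% of all tested genes there). Of the 13 genes of the mitochondrial genome 1 was called.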

How the data were processed

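RNAseq libraries of 786-0 cells were made by the authors from 3 samples each of untreated WT, PT2385-treated WT and KO cells. Reads were trimmed with cutadapt, aligned to GRCh38 (hg38) with STAR and assigned to genes with featureCounts by the authors, whose versions, annotation release and strand setting are not given in the sources used here. The deposited values are raw counts per gene, for 58735 gene identifiers, of which 58207 matched GENCODE release 44 for names and positions on GRCh38. Without a strand setting, reads from overlapping exons cannot be told apart, and such genes are named with their partner.

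Counts of the 6 KO and PT2385 libraries were filtered with filterByExpr (minimum count 10), scaled with TMM factors and tested with edgeR 4.0.16 (quasi-likelihood F test, R 4.3.3) across 15402 genes, with Benjamini-Hochberg adjustment. A gene was called at an adjusted p under 0.05. KO and PT2385-treated cells were each compared with untreated WT in models of their own. CPM were computed from the counts with TMM-scaled library sizes. DESeq2 1.42.0, other scalings, filters and thresholds, a block for the replicate number, a model of all 9 libraries and leaving out each library or FN1 were tried as alternatives. The scripts were tested on simulated data.

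Besides EPAS1, HIF1A, ARNT and genes that the study names, the text names the 10 largest called differences in each direction (groups apart, mean count of at least 100) and up to 4 called members of each list with the largest differences at that mean count. Gene lists and comparison were chosen with earlier results of these data known. The ranges of chromosomes 15, 16 and distal 1 were chosen after their values were seen. List counts are descriptions without a test, and the values of a few genes and the counts of 1 list are not reported here. CPM say nothing of RNA per cell. Between 11881000 and 14730081 reads were counted per library, and counting intervals cover counting error only.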

Additional observations from a re-analysis of the deposited data

How the results depend on the processing

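The number of genes called between KO and PT2385-treated cells was within 1.5 times 2897 with DESeq2 (2612, of which 2522 were shared), with RLE (2870), upper-quartile (2901) or library-size scaling (2933), with no filter on low counts (3606), with at least 10 counts in every library (2552), in a model of all 9 libraries (3431) and without FN1 (2875). The filter of at least 10 counts in every library left 427 genes with at least a 2-fold difference. At an adjusted p under 0.01 there were 1657 genes, 730 higher and 927 lower in KO. Against a 1.5-fold change (glmTreat) there were 528, 297 higher and 231 lower, 486 of them with at least a 2-fold difference. Without chromosomes 15, 16 and distal 1, a fit chosen after seeing the data, 1853 genes were called, 829 of them lower in KO, or 44.7%, against 1592 of 2897 over all chromosomes. With 1 library left out, where the group of 2 and the group of 3 share an estimate of the spread, 1836 (without PT2385 replicate 2) to 3190 (without KO replicate 3) genes were called, 845 to 1430 higher and 991 to 1760 lower, and 663 to 782 with at least a 2-fold difference. EPAS1 lay between -3.53 and -3.37 in these fits. VEGFA, which was not called, had a log2 fold change of 0.09 without KO replicate 2 and 0.04 without PT2385 replicate 3 (from -0.11 to 0.09 in all), and ITGB8, also not called, -0.05 and -0.04 (from -0.05 to 0.10 in all). The cause of these shifts was not tested. Deviations of KO and PT2385 libraries with the same replicate number correlated at 0.346, 0.087 and 0.41 over 10221 genes. Different numbers gave 0.099 and -0.359 for KO replicate 1, 0.183 and -0.209 for KO replicate 2, and -0.379 and -0.139 for KO replicate 3. The same number thus correlated best for KO replicates 1 and 3 but not for KO replicate 2. The labels do not pair the samples, so the main fit has no block and leaves any effect shared by a replicate number in the spread. With the replicate number as a block, 3783 genes were called, 2887 of the 2897 among them, and 18 of the 24 cholesterol synthesis genes. Depth limits genes with few counts, such as the OAS genes and MMP13.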
